A study of Mus musculus with 4 samples.

Results

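AP-1 is a transcription factor made of a Fos protein bound to a Jun protein, or of paired Jun proteins. Several of its genes, Fos and Jun among them, are immediate early genes. The 10 genes described here are the Fos subunit genes Fos, Fosb, Fosl1 and Fosl2, the Jun subunit genes Jun, Junb and Jund, and the immediate early genes Egr1, Ier2 and Ier3. They were chosen by gene symbol, with earlier results of these data known. All 10 were found among the 25170 genes of each deposited table. Each of 4 libraries came from mouse embryonic stem cells, in a series about Ldha, lactylation of the deacetylase Hdac1 and the 2-cell state. WT was the E14 line with a wild-type genotype and no treatment named. SO had a wild-type genotype and was labelled as SO treatment, an inhibitor in the series text. Ldha_KO was labelled as an Ldha knockout and Ldhb_KO as an Ldhb knockout, the genes of the A and B subunits of lactate dehydrogenase. Per the labels' protocols all cells were grown in medium with fetal bovine serum and LIF on gelatin, under normal culture. The dose and duration of SO, the way the knockouts were made and the number of clones are all not given in these sources. There was 1 library per group, so no value has an error, no p-value was computed, and each difference compares 2 libraries and not the conditions.

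Immediate early genes are switched on within minutes of a growth factor, serum or stress signal, without new protein synthesis, and most of their transcripts are short-lived. MAP kinases such as ERK act on serum response factor and its ETS partners at the serum response element of many of these genes, and on CREB at the cAMP response element. In embryonic stem cells LIF acts through Stat3, for which Junb and Socs3 are known target genes, and FGF acts through ERK, for which Egr1, Dusp6 and Spry4 are known targets.

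The values were read as FPKM, that is fragments scaled by transcript length and library depth. On that reading, levels of different genes can be compared. They summed to 471595 to 526316 per library, and 11952 to 12577 genes reached 1. A difference between 2 libraries is that of log2(FPKM + 1), and 1 on this scale, in either direction, was the threshold for calling a gene higher or lower. The rule was applied to the 13142 genes that reached 1 FPKM in any library. By this scale the change of a gene with low values is understated, so the ratio of FPKM is given too. Values summed over all genes in SO, Ldha_KO and Ldhb_KO differed from WT by -0.16, -0.14 and -0.12 (log2), and rescaling to the sum of WT would raise each difference from WT by at most the size of that gap, and by less for genes with low values. From genes seen in 1 library alone, 1 fragment on a transcript of 1 kb was worth about 0.083 FPKM, which is a rough figure from another annotation. The targeted genes were lowest in the libraries labelled as their knockouts, with Ldha at 154 FPKM in Ldha_KO and 1774 in WT, and Ldhb at 5.74 in Ldhb_KO and 76.5 in WT. All 9 embryonic stem cell markers were at 124 FPKM or more in every library. Of 10 fibroblast or feeder markers, Dcn and Lum were listed at 0 in every library and the list summed to 43.8 to 54.4 FPKM, of which Thy1 made up 36.9 to 47.4. The 1 marker of that list called against WT was Pdgfrb, higher in SO (1.16) and Ldhb_KO (1.25) and at 0.96 in Ldha_KO. Endoderm markers summed to 3.39 to 5.99, trophectoderm markers to 50.6 to 82.2 and neuroectoderm markers to 11.5 to 15.7. Of these 3 lists, Tfap2c was called higher than WT in Ldhb_KO (1.33) and Neurod1 in SO (1.82). Their part in the results was not tested. The stem cell marker sum was lowest in Ldha_KO, at 5970 against 6663 to 6860 in the other libraries, none of the 9 was called against WT, and Tdgf1 was lower in Ldha_KO than in Ldhb_KO (-1.06). The part of this sum in the results was not tested. The labels name no batch.

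Sequence upstream of the start site is shown for the genes with the most divergent values in the knockouts: Fos, Fosb and Jun, which were higher in Ldha_KO, and Junb and Ier3, which were lower there. RefSeq promoters on GRCm38.p6, another build than the mm9 of the submitters' processing notes, were found for 7 of the 10 genes. Those of Fosl1, Egr1 and Ier2 were not used here. Each line gives the 250 bases before the start, 5′ to 3′ on the strand of the gene, with matches to a searched motif in capitals. They lie at chr12:85473640-85473889 (plus strand) for Fos, chr7:19310046-19310295 (minus strand) for Fosb, chr4:95052223-95052472 (minus strand) for Jun, chr8:84978749-84978998 (minus strand) for Junb and chr17:35821463-35821712 (plus strand) for Ier3.
Fos: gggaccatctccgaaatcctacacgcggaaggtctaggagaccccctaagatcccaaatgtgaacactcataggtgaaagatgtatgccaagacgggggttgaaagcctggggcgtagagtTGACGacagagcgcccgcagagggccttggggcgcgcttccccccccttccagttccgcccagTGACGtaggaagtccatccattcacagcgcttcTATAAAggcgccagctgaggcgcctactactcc
Fosb: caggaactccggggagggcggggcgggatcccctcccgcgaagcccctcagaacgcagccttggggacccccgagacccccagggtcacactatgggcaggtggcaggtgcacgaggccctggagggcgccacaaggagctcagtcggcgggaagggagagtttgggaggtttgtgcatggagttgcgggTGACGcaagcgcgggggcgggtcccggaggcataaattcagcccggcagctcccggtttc
Jun: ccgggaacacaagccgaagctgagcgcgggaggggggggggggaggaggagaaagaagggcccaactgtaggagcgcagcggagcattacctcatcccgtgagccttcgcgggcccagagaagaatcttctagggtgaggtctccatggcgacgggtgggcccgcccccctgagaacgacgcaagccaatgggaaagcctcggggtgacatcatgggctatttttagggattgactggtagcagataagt
Junb: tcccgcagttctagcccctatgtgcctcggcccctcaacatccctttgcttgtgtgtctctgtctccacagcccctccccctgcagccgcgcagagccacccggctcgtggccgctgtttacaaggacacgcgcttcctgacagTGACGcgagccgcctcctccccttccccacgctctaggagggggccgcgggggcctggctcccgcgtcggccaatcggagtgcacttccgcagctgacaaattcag
Ier3: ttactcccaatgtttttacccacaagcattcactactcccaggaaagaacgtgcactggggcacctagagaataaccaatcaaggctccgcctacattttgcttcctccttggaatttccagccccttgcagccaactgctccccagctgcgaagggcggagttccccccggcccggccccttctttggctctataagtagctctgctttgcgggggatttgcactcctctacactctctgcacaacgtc
The capitals mark TGACG, the core of the cAMP response element, and in Fos also the TATA box TATAAA.

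On both strands, 6 motifs were searched in these 7 windows. The core TGACG, which is also the start of the full element TGACGTCA, was found in 3 of 7 windows, against 17.9% of 32536 RefSeq promoter windows of the same length. It began 129 and 66 bases before the start of Fos, 60 before that of Fosb and 106 before that of Junb. By distance, the TGACG of Fosb lay nearest the start and that of Junb lay between those of Fos, while Jun and Ier3 had none. How often windows match by position was not examined. The TATA box TATAAA was found in 1 of 7 windows, that of Fos, 33 bases before the start, and in 12.3% of all windows. The AP-1 site TGANTCA (6.73% of all windows) and the full cAMP response element TGACGTCA (1.56%) were found in 0 of the 7. The same held for the ETS motif CCGGAA (12.1%) and the CArG box of the serum response element (1.48%). Only exact matches to these patterns were counted, so variants and shorter forms were not. Sequence farther upstream, and the promoters of Fosl1, Egr1 and Ier2, were not searched, so the counts do not cover sites there. These letters describe the windows only.

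Fos, the founding AP-1 subunit, was at 4.30 FPKM in WT and 8.52 in SO, and 80.2 in Ldha_KO and 8.70 in Ldhb_KO. Ldha_KO stood far above the other 3 libraries, and SO and Ldhb_KO lay close together above WT. The ratio to WT was 18.7 in Ldha_KO, 1.98 in SO and 2.03 in Ldhb_KO. On the log2(FPKM + 1) scale Fos was called higher in Ldha_KO, with a difference of 3.94, and the differences of 0.85 in SO and 0.87 in Ldhb_KO did not reach the threshold. Of the genes kept, 30.2% had a lower level than Fos in WT and 91.5% in Ldha_KO. In these bulk libraries, more transcript per cell and more cells with the transcript cannot be told apart.

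Fosb, a Fos protein of the full and a shortened form that values per gene do not separate, was at 0.190 FPKM in WT and 0.423 in SO, and 18.5 in Ldha_KO and 0.160 in Ldhb_KO. It was near the lower limit of detection in every library but Ldha_KO, where it was above 63.8% of the genes kept. The levels correspond to roughly 9 fragments in WT and 19 in SO, and 843 in Ldha_KO and 7 in Ldhb_KO, so the ratios of 97.7 to WT and 116 to Ldhb_KO rest on few fragments in the lower library. The differences on the log2(FPKM + 1) scale were 4.04 from WT and 4.07 from Ldhb_KO, and Fosb passed the filter through Ldha_KO alone.

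Fosl1, which encodes Fra-1, was at 0.661 FPKM in WT and 2.42 in SO, and 1.30 in Ldha_KO and 1.86 in Ldhb_KO. SO was the highest library and WT the lowest, at roughly 54 and 15 fragments. Fosl1 was called higher in SO, with a difference of 1.04 and a ratio of 3.66. Its values in WT lay below 1, so it passed the filter through the other 3 libraries. The coding gene Ccdc85b overlaps it on the opposite strand in GENCODE M21, and whether counting used the strand is not stated in the sources used here. Ccdc85b was at 4.47, 4.23, 2.57 and 3.74 FPKM in WT, SO, Ldha_KO and Ldhb_KO, and its part in the Fosl1 values was not tested.

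Fosl2, which encodes Fra-2, was at 0.502 FPKM in WT and 0.758 in SO, and 0.663 in Ldha_KO and 1.43 in Ldhb_KO. Only Ldhb_KO reached 1, and no difference from WT was called. The ratio of 2.85 to WT in Ldhb_KO corresponds to a difference of 0.69.

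**Figure D1:**
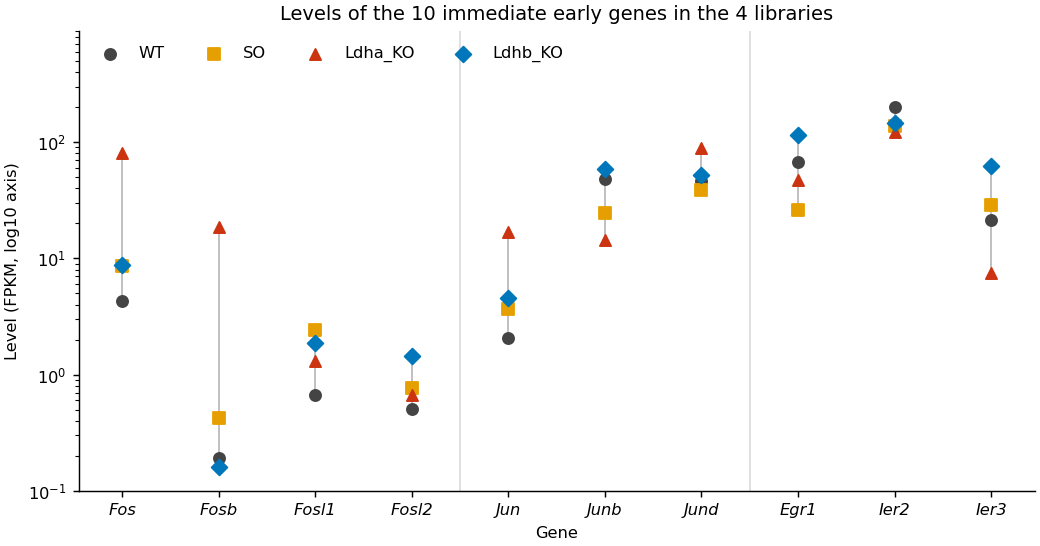
Levels of the 10 genes (x axis) in FPKM on a log10 axis, with 1 symbol for each of the 4 libraries, a grey line over their range, and vertical lines between Fos subunits, Jun subunits and the other genes. Fos, Fosb and Jun of Ldha_KO (triangles) stand above the other libraries, Junb and Ier3 of Ldha_KO stand below them.

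Jun, the founding Jun subunit and the usual partner of Fos, was at 2.08 FPKM in WT and 3.63 in SO, and 16.9 in Ldha_KO and 4.55 in Ldhb_KO. The libraries fell in the same order as for Fos, with Ldha_KO highest, Ldhb_KO and SO between, and WT lowest. Jun was called higher in Ldha_KO, with a ratio of 8.16 to WT and a difference of 2.54, and its differences in SO (0.59) and Ldhb_KO (0.85) were not called. GENCODE M21 lists the antisense gene Junos across part of Jun, for which no value was used here.

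Junb, a Jun protein that can restrain Jun and is a LIF target in these cells, was at 48.4 FPKM in WT and 24.8 in SO, and 14.2 in Ldha_KO and 58.8 in Ldhb_KO. Here Ldha_KO was the lowest library and Ldhb_KO the highest, the reverse of Jun for Ldha_KO. Junb was called lower in Ldha_KO, where WT was 3.40-fold higher, with a difference of -1.70. In SO the difference of -0.94 was not called. The coding gene Prdx2 overlaps Junb on the opposite strand in GENCODE M21. Prdx2 was at 250.2 FPKM in WT and 192 in SO, and 166 in Ldha_KO and 185 in Ldhb_KO, a narrower range than that of Junb, and its part in the Junb values was not tested.

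Jund, the Jun subunit expressed most steadily in many cells, was at 46.0 FPKM in WT and 38.9 in SO, and 89.6 in Ldha_KO and 51.7 in Ldhb_KO. Ldha_KO was highest, and the other 3 libraries lay within a ratio of 1.33 of each other. The difference of 0.95 between Ldha_KO and WT fell just short of the threshold, and passed it once each library was rescaled to the sum of WT (1.09) or by the median ratio to WT (1.05). Between SO and Ldha_KO it was called, at -1.18. The antisense gene Gm11175 overlaps Jund in GENCODE M21, and no value of it was used here.

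The summed level of the 7 AP-1 genes was 102 FPKM in WT and 79.4 in SO, and 221 in Ldha_KO and 127 in Ldhb_KO. The Fos family made up 5.54% of it in WT and 15.3% in SO, and 45.5% in Ldha_KO and 9.56% in Ldhb_KO. The Fos family sum was 17.8-fold that of WT in Ldha_KO, and 2.14-fold in SO and 2.15-fold in Ldhb_KO. The Jun family sum moved far less, at 0.698, 1.25 and 1.19 times WT in SO, Ldha_KO and Ldhb_KO. Within it, Junb and Jund were nearly level in WT, with Jund at 0.950 times Junb, and Jund was 6.29 times Junb in Ldha_KO. Fos alone gave 36.2% of AP-1 transcripts in Ldha_KO and 4.21% in WT, while Junb gave 6.43% and 47.4%. Transcript levels do not measure the proteins or their dimers.

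**Figure D2:**
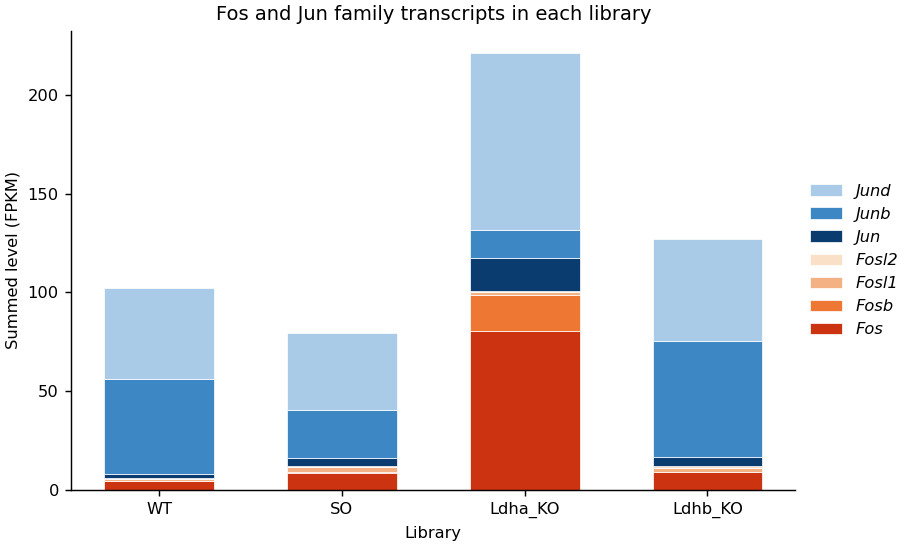
Summed FPKM (y axis) of the 4 Fos family genes (reds) and 3 Jun family genes (blues) in each library (x axis), with 1 bar segment per gene. The bar of Ldha_KO reaches 221 and holds a large Fos segment and a small Junb segment, and that of WT reaches 102 and is mostly Junb and Jund.

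Egr1, a zinc finger transcription factor that responds to ERK signalling, was at 68.1 FPKM in WT and 25.9 in SO, and 47.6 in Ldha_KO and 116 in Ldhb_KO. SO was the lowest library and Ldhb_KO the highest. Egr1 was called lower in SO, with WT 2.63-fold higher and a difference of -1.36, and its differences of -0.51 in Ldha_KO and 0.76 in Ldhb_KO were not called. It did not follow Fos, the gene with which it is often induced: Ldha_KO was the highest library for Fos and lay below WT and Ldhb_KO for Egr1.

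Ier3, a short-lived protein linked to cell survival and ERK signalling, was at 21.2 FPKM in WT and 28.8 in SO, and 7.44 in Ldha_KO and 61.9 in Ldhb_KO. The knockouts lay at the opposite ends of its range, with Ldhb_KO 8.31-fold higher than Ldha_KO. Against WT it was called lower in Ldha_KO (-1.40) and higher in Ldhb_KO (1.50). Ier2, a nuclear protein of the early response, had the highest level of the 10 genes in every library. Its values were 202 FPKM in WT and 136 in SO, and 121 in Ldha_KO and 145 in Ldhb_KO, a range of 1.67-fold with WT highest, and no difference between any 2 libraries was called.

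**Figure D3:**
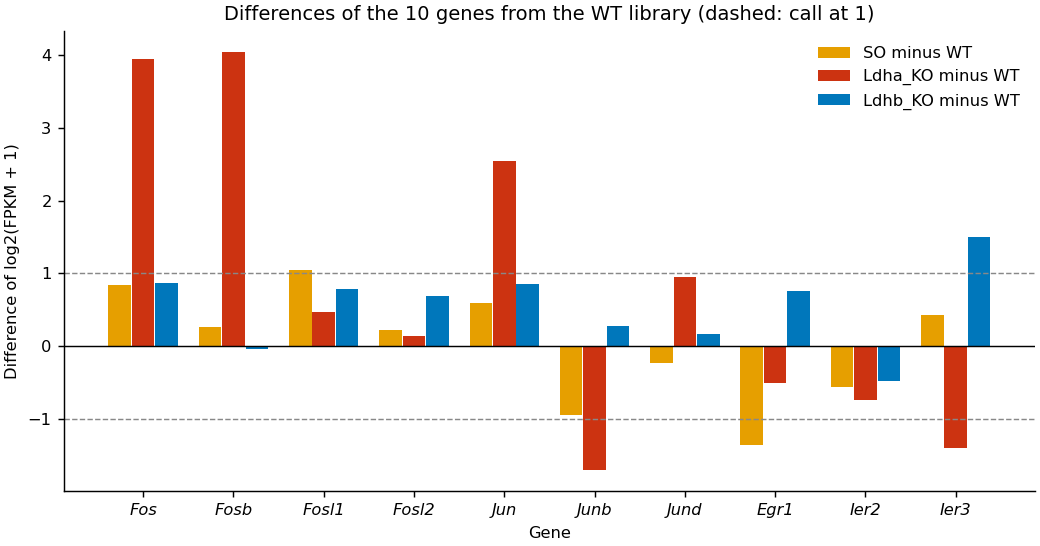
Difference of log2(FPKM + 1) from WT (y axis) for each of the 10 genes (x axis), with 1 bar for SO, Ldha_KO and Ldhb_KO and dashed lines at the call threshold of 1. The 3 tall bars are Fosb, Fos and Jun in Ldha_KO (4.04, 3.94 and 2.54), and the lowest is Junb in Ldha_KO (-1.70).

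Counted together, the 10 genes differed most in Ldha_KO. These genes were chosen with earlier results of these data known, and Fosb passed the filter through Ldha_KO alone. The shares of all genes are thus given for reference and are no test of enrichment. Against WT, 3 of 10 were called higher there (Fos, Fosb and Jun) and 2 lower (Junb and Ier3), while of all genes kept 2.65% were higher and 1.06% lower. By size of the difference, Fosb ranked 2, Fos 3 and Jun 10 among the 13142 genes, from the highest. In SO 1 of 10 was higher (Fosl1, against 2.69% of all genes) and 1 lower (Egr1, against 0.472%). In Ldhb_KO 1 of 10 was higher (Ier3, against 3.36%) and 0 lower (1.09%). The medians over the 10 genes were 0.31 in Ldha_KO, 0.24 in SO and 0.73 in Ldhb_KO, and over all genes kept -0.03, -0.04 and -0.02. The median is thus highest in Ldhb_KO, where 8 of 10 genes lay above WT by modest amounts, while Ldha_KO had genes at both ends. All 3 comparisons share the WT library, which was the lowest library for Fos, Fosl1, Fosl2 and Jun. Among all genes called, 85.1% were higher in SO, 71.5% in Ldha_KO and 75.5% in Ldhb_KO. After rescaling to the sum of WT these shares were 91.9%, 83.3% and 86.4%. With a pseudocount of 0.1 in place of 1, 5 of 10 genes were higher in Ldhb_KO, against 1141 of all 13142 genes. Fos (1.001), Fosl1 (1.36), Fosl2 (1.35) and Jun (1.09) reached the threshold there. Of these, Fosl2 passed the filter through Ldhb_KO alone.

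The knockouts were also compared with each other. Fos, Fosb and Jun were higher in Ldha_KO than in Ldhb_KO (3 of 10, against 1.67% of all genes), and Junb, Egr1 and Ier3 were lower (3 of 10, against 1.54%). The differences were 3.06 for Fos, 4.07 for Fosb and 1.69 for Jun, and -1.97 for Junb, -1.27 for Egr1 and -2.90 for Ier3. Ier3 ranked 4 from the lowest among all genes kept. In SO against Ldha_KO, 1 of 10 was higher (Ier3, 1.82, against 0.746%) and 4 were lower (against 1.1%): Fos (-3.09), Fosb (-3.78), Jun (-1.95) and Jund (-1.18). Fosb had the lowest difference of all genes in that comparison. In SO against Ldhb_KO, 0 of 10 were higher (1.56% of all genes) and 3 were lower (2.01%), namely Egr1 (-2.12), Junb (-1.21) and Ier3 (-1.08). Fos was nearly level there, at a difference of -0.03. Ldha_KO was the highest library for Fos, Fosb, Jun and Jund, and Ldhb_KO for Fosl2, Junb, Egr1 and Ier3.

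**Figure D4:**
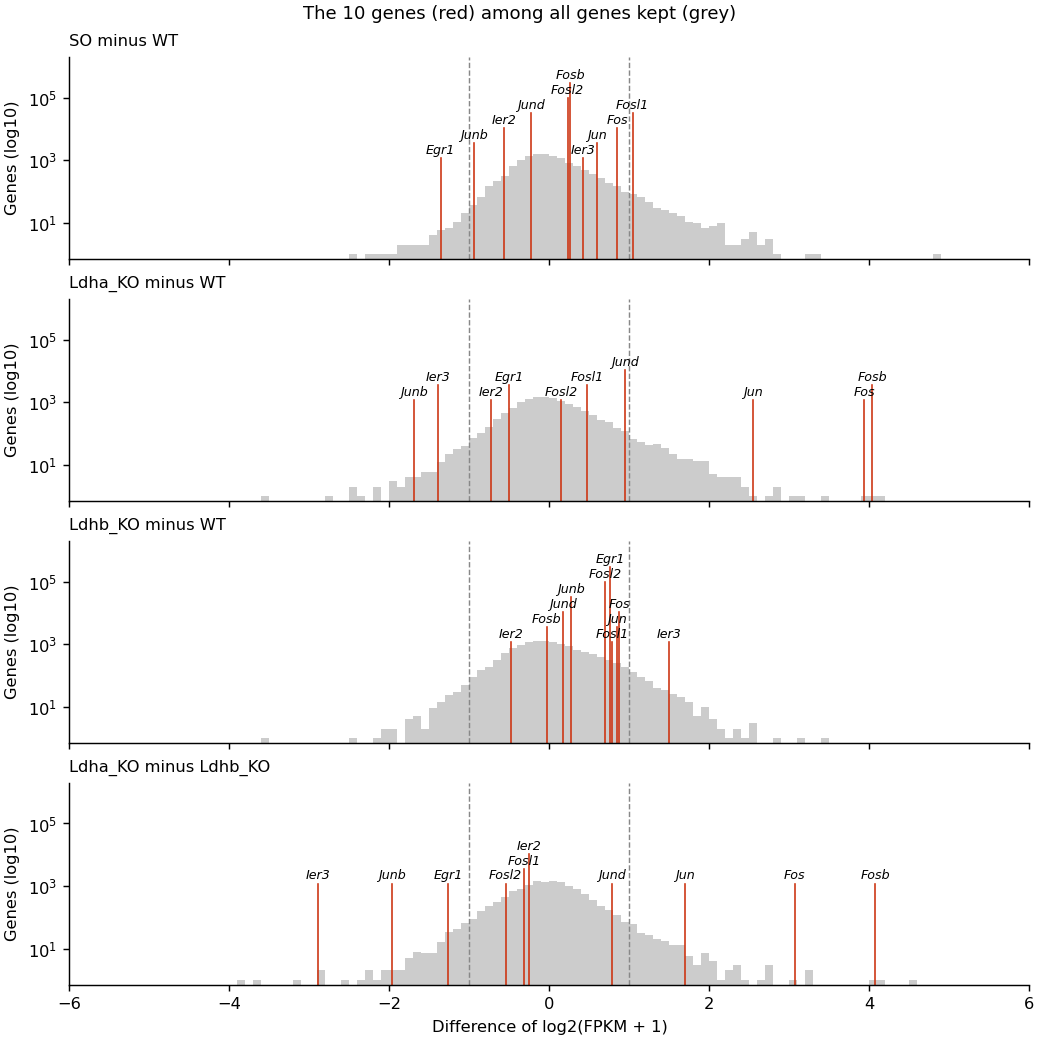
Number of genes (y axis, log10) by difference of log2(FPKM + 1) (x axis) for the 13142 genes kept (grey), with the 10 genes as red lines whose height only separates the names, and dashed lines at the threshold of 1. Fos, Fosb and Jun lie in the upper tail of Ldha_KO minus WT and of Ldha_KO minus Ldhb_KO, and in Ldhb_KO minus WT most of the 10 lie between 0 and 1.

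Genes with the most similar pattern were sought among 9770 genes with at least 5 FPKM in 1 or more libraries, by the distance between log2(FPKM + 1) profiles over the 4 libraries, each less its mean. For Fos these were Osr2 (distance 0.55), Fosb (0.83) and Xlr3c (1.07). All 3 reached 5 FPKM in Ldha_KO alone, the library where Fos was highest, so they passed the filter through that library. With a pseudocount of 0.1, only 1 of them was still among the nearest 3. Osr2, a zinc finger transcription factor, was listed at 0 in WT and was at 0.138 FPKM in SO, 9.66 in Ldha_KO and 0.145 in Ldhb_KO. Xlr3c, of an X-linked gene family, was at 1.12, 1.56, 13.6 and 3.53 in the same order. For Jun the nearest were 1700018B24Rik (0.40), Atf3 (0.44) and Xlr3c (0.46). For Ier3 they were Dppa3 (0.37), Socs3 (0.65) and 4931428F04Rik (0.95). Dppa3, a gene of naive cells and the early germline, was at 4.03 FPKM in WT and 4.24 in SO, and 0.952 in Ldha_KO and 10.3 in Ldhb_KO. Socs3, which inhibits LIF signalling, was at 76.3, 66.9, 16.0 and 125. With 4 libraries many genes share a pattern, so the distances only describe these libraries.

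Of 16 further immediate early transcription factors, 12 were kept. In Ldha_KO 2 of 12 were higher than WT (2.65% of all genes kept) and 1 lower (1.06%), with a median of 0.15. In SO none was called (median -0.36), against 2.69% higher and 0.472% lower of all genes. In Ldhb_KO 1 was higher (3.36%) and 1 lower (1.09%), with a median of -0.04. These shares of all genes apply to every count against WT in the lists that follow. The lists were also chosen with earlier results of these data known, so their counts describe these libraries and test nothing. Atf3, a stress-induced partner of Jun, was at 2.47 FPKM in WT and 2.77 in SO, and 14.1 in Ldha_KO and 5.14 in Ldhb_KO. Klf6 was at 8.48, 10.7, 25.9 and 14.1, with Ldha_KO again highest. Myc, a regulator of growth, was lower in both knockouts, at 66.5 FPKM in WT and 40.5 in SO, and 12.7 in Ldha_KO and 14.8 in Ldhb_KO. Maff, a small Maf protein, was higher in Ldhb_KO (18.0 and 8.32 in WT). Nr4a1, a nuclear receptor of the early response that was named after its values were seen, stayed within 22.3 to 26.8 FPKM.

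All 21 further immediate early genes that encode no transcription factor were kept. In Ldha_KO 9 of 21 were higher than WT (2.65% of all genes) and 1 lower (1.06%), with a median of 0.55. In SO 2 were higher (2.69%) and 0 lower (0.472%), with a median of 0.16, and in Ldhb_KO 2 were higher (3.36%) and 2 lower (1.09%), with a median of 0.05. Ccn2, a secreted matrix protein known as a target of YAP and of serum response factor, was at 10.5 FPKM in WT and 21.9 in SO, and 54.1 in Ldha_KO and 9.68 in Ldhb_KO. Its relative Ccn1 was at 6.72, 14.4, 24.7 and 7.91, in the same order of libraries except that WT was lowest. Plk2, a kinase that is also a p53 target, was at 6.89 FPKM in WT and 45.9 in SO, and 64.5 in Ldha_KO and 15.4 in Ldhb_KO. Btg2, an antiproliferative gene that is a p53 target too, had its highest level in SO, at 59.4 FPKM, against 12.2 in WT, 29.6 in Ldha_KO and 22.8 in Ldhb_KO. In SO the difference of Ccn2, 0.9999, fell just short of the threshold.

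Transcripts of proteins that act on these genes, or pair with AP-1 subunits, were counted in the same way against WT. Of 9 upstream transcription factors, among them Elk1, Creb1 and Stat3, none was called against WT in SO, Ldha_KO or Ldhb_KO, with medians of 0.05, 0.13 and -0.04. Of 21 MAP kinase pathway kinases kept, 1 was called against WT, Mapk13 in Ldhb_KO, where it was higher (20.3 FPKM, WT 5.35) with a difference of 1.75. Of 9 bZIP partners kept, 1 was called against WT, Jdp2 in Ldhb_KO, where it was higher (7.30, WT 2.58), and in Ldha_KO 8 of the 9 lay above 0 with a median of 0.49. In the comparisons without WT, Elk4 and Batf3 were higher and Mapk13 lower in Ldha_KO than in Ldhb_KO, and Batf3 was lower in SO than in Ldha_KO. In SO against Ldhb_KO, Map2k6 was higher, and Mapk12, Rps6ka2, Atf4 and Jdp2 were lower. These genes were named because they make up the calls, after their values were seen. Of all genes kept, 1.67% were higher and 1.54% lower in Ldha_KO against Ldhb_KO, and 1.1% were lower in SO against Ldha_KO. In SO against Ldhb_KO, 1.56% of all genes were higher and 2.01% lower. RNA levels of kinases do not measure their activity.

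Among feedback inhibitors of MAP kinase signalling, themselves targets of the pathway, Spry4, Spry2 and Dusp6 were lower than WT in Ldha_KO. Of 13 kept, these 3 were called lower there (1.06% of all genes) and 0 higher (2.65%), with a median of -0.40. The others were not called, and 5 of the 13 lay above 0, up to 0.78 for Dusp5 and 0.67 for Dusp16. In Ldhb_KO 1 was lower (1.09%) and 0 higher (median -0.22), and none was called in SO (-0.19). Spry4 was at 111 FPKM in WT and 75.3 in SO, and 15.6 in Ldha_KO and 80.0 in Ldhb_KO. Spry2 was at 72.1, 59.2, 17.8 and 33.4, and the ERK phosphatase Dusp6 at 47.4, 41.3, 22.6 and 26.4. For all 3, Ldha_KO was the lowest library and WT the highest. Dusp1, a phosphatase of the early response named after its values were seen, was at 37.1 FPKM in WT and 35.0 in SO, and 89.7 in Ldha_KO and 56.6 in Ldhb_KO.

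Factors that bind AU-rich elements, which mark many immediate early transcripts for decay, had medians of -0.37 in SO, -0.55 in Ldha_KO and -0.30 in Ldhb_KO, with 6 of 7 below 0 each time. Of the 7, 1 was called against WT, Zfp36l2, lower in Ldhb_KO (9.10 FPKM, WT 20.3, against 1.09% of all genes). Zfp36, named after its values were seen, was called lower in Ldha_KO than in Ldhb_KO (-1.29, against 1.54% of all genes). Rescaling to the sum of WT would move these medians towards 0 by at most the gaps given above.

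Of 20 genes reported as AP-1 targets in other cells, 15 were kept. In Ldha_KO 3 of 15 were higher than WT (2.65% of all genes) and 0 lower (1.06%), with a median of 0.37. In SO 2 were higher (2.69%) and 0 lower (0.472%), with a median of 0.27, and in Ldhb_KO 2 were higher (3.36%) and 1 lower (1.09%), with a median of 0.64. The matrix protease Mmp2 was at 6.12 FPKM in WT and 17.5 in SO, and 14.4 in Ldha_KO and 21.0 in Ldhb_KO. Hmox1, the heme oxygenase, was highest in Ldha_KO (190.0, WT 83.0), Vegfa in Ldhb_KO (37.8, WT 14.4), and the cyclin Ccnd1 was lowest in Ldhb_KO (36.3, WT 73.6). In the comparisons without WT, none of the 15 was called between Ldha_KO and Ldhb_KO, against 1.67% higher and 1.54% lower of all genes. The metallothioneins Mt1 and Mt2, named after their values were seen, were lower in SO than in Ldha_KO (-1.67 and -1.77) and than in Ldhb_KO (-1.37 and -1.63). Of all genes, 1.1% were lower in SO against Ldha_KO and 2.01% in SO against Ldhb_KO.

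Heat shock genes, of which some are induced by stress and others were at high levels in every library, were described beside these genes. Their medians thus do not measure stress or handling of the cells. Of 10, none was called in SO or Ldha_KO against WT, and 1 was lower in Ldhb_KO, Hsph1 (26.3 FPKM, WT 55.9, against 1.09% of all genes). The medians were -0.22, -0.12 and -0.28. The stress-inducible Hspa1a, named after its values were seen, lay above WT, at 0.848 FPKM in WT and 2.68 in SO, and 2.20 in Ldha_KO and 1.53 in Ldhb_KO. Its difference of 0.99 in SO fell just short of the threshold, and that in Ldha_KO was 0.79. Hspa1b, also named after its values were seen, differed from WT by 0.39 in SO, 0.35 in Ldha_KO and -0.03 in Ldhb_KO.

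**Figure D5:**
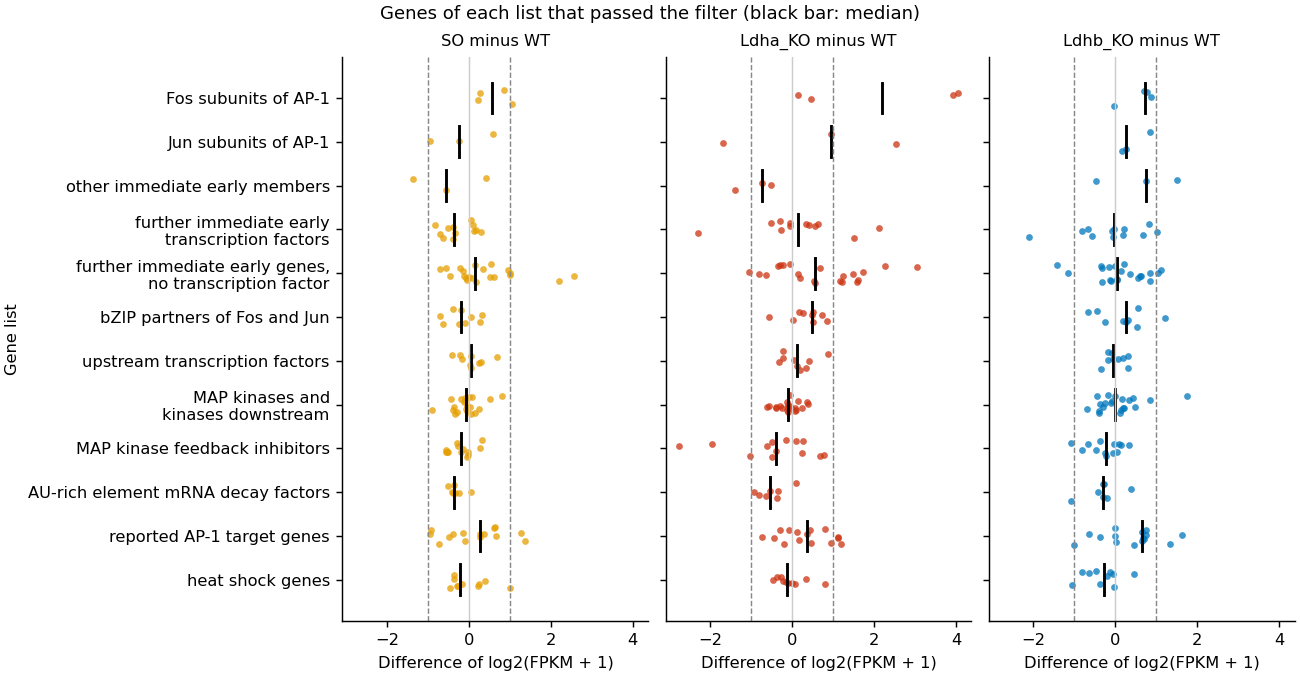
Difference of log2(FPKM + 1) from WT (x axis) of the genes of each list that passed the filter (y axis), with 1 panel each for SO, Ldha_KO and Ldhb_KO, 1 point per gene, a black bar at the median and dashed lines at the threshold of 1. Fos subunits and the further immediate early genes reach farthest to the right in Ldha_KO, and feedback inhibitors reach farthest to the left.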

How the data were processed

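The submitters' processing notes name the mouse build mm9, Bowtie2 (2.3.4.3) and HTSeq (0.11.2), and also SAMtools (1.9) and edgeR (3.26.8). What each tool did, and the annotation, is not given in these sources. The authors deposited 1 table per library, with 1 value for each of 25170 gene symbols. These deposited values were read as FPKM: they have decimals, their totals differ between libraries, and they are smaller for longer transcripts among genes seen in 1 library. RPKM could not be told apart from FPKM, and no depth in reads is given.

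Differences of log2(FPKM + 1) were computed in Python 3.11.15 with pandas 2.3.3 for the 6 pairs of 4 libraries, over 13142 genes with at least 1 in at least 1 library, and called at 1 or more. There was no test, since each group had 1 library. The code that makes the calls was tested on simulated data, which checks the code and no call made here. The 10 genes and the lists were chosen with earlier results of these data known. All 181 entries of 17 lists were found, 4 of them by RefSeq synonym. Genes named from a list, beside the 10, were up to 4 with the largest called difference from WT and at least 5 FPKM in the higher library, with the 3 nearest profiles to Fos, Jun and Ier3. Alternatives were a pseudocount of 0.1, no filter, a filter of 5, and rescaling to the sum of WT or by the median ratio to WT over 8293 genes of at least 5 in all 4 libraries.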

Additional observations from a re-analysis of the deposited data

How the results depend on the processing

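Over the 6 comparisons, the 60 differences of the 10 genes kept their side of the threshold in 54 cases with a pseudocount of 0.1, and in 59 after rescaling to the sum of WT or by the median ratio to WT. The others passed it only under the alternative, and no called difference changed sign. With a pseudocount of 0.1, 5 genes were higher in Ldhb_KO against WT and 1 in SO against Ldhb_KO (Fosb, 1.01). Fosl2 reached -1.004 in Ldha_KO against Ldhb_KO. Of the 3 genes nearest to Fos, 1 was shared with that pseudocount. With a filter of 5, which leaves 8 of the 10 genes, 0 were higher in SO against WT. Over all genes, the pseudocount of 0.1 gave 808 higher and 182 lower in SO against WT (353 and 62 as reported), 868 and 321 in Ldha_KO (348 and 139), 1141 and 311 in Ldhb_KO (441 and 143), 419 and 574 in Ldha_KO against Ldhb_KO (219 and 202), 361 and 353 in SO against Ldha_KO (98 and 144), and 421 and 634 in SO against Ldhb_KO (205 and 264). A filter of 5 tests fewer genes and gave 234 higher and 40 lower in SO against WT and 262 higher in Ldhb_KO against WT. With no filter the counts did not change. Differences of Fosb, Fosl1 and Fosl2 rest on low values. No paired analysis was possible because each group had 1 library.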
